A study of Gallus gallus with 9 samples.

Results

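The genes described here are 100 chicken genes whose symbol in the platform annotation begins with FOX-, SOX-, TBX-, GATA-, LHX-, PAX-, MEIS-, PBX-, IRX-, SIX-, DLX-, MSX-, TWIST- or NR2F- followed by a number or letter, out of 13008 genes with a probe set of their own on the array. The rule used names and no measured difference. A gene with more than 1 probe set was represented by the probe set of highest mean over the 9 arrays. Of the 100 genes, 92 belong to the developmental transcription factor families that these letters stand for. The other 8 (FOXRED1, FOXRED2, GATAD1, GATAD2A, PAXBP1, PAXIP1, TBXAS1 and TWISTNB) share the letters but were not counted as transcription factors of these families. TBXAS1, for example, encodes thromboxane A synthase. They are counted among the 100 and left out where transcription factors are described.

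The cells were chicken preadipocytes, the fat-cell precursors, from abdominal fat of laying hens. Controls were untreated, a second group received DMIOA, an adipogenic cocktail whose letters the labels do not spell out, and the last received DMIOA with 10 uM retinoic acid, with 3 biological replicates per group and 1 array per replicate. No genotype, hen age or treatment time is given in the sources used here, and the hens or cultures behind the replicates are not named, so that p-values speak only of the spread among these samples. With retinoic acid, replicates 1 and 2 were close: their median gap over the 30 tested genes was 0.034 on the log2 scale, against 0.15 in control and 0.35 with DMIOA. Over all 12329 tested probe sets it was 0.067, against 0.12 and 0.29. Were they not separate cultures, p-values would be too small. The titles of the control and DMIOA samples end in a mark, "(2)", that those with retinoic acid lack, and a handling difference it might stand for cannot be told apart from retinoic acid.

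Transcription factors of these families bind DNA through a conserved domain (forkhead, HMG box, T-box, zinc finger, paired domain, homeodomain or basic helix-loop-helix) and set up tissues and body regions in the embryo. Connective tissue cells of the adult keep expressing some of them, and which ones depends on where in the body the cells came from. Retinoic acid is itself a developmental signal: it enters the nucleus, activates the retinoic acid receptors and changes the expression of many patterning genes. No gene, probe or promoter sequence is shown, and the order of genes along the chromosomes is the only use made of their positions.

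Levels are log2 values, on which a step of 1 is a 2-fold change, made by the authors with GCRMA, and a level below 5 was taken as too low to measure a change. A low level speaks of that probe set and does not show that the gene is silent. Of the 100 genes, 24 were at or above 5 on all 9 arrays, 68 were below 5 on all 9, and 58 never reached 3. Those that reached 5 on at least 3 arrays were tested: 30 genes, 26 of them in the families. That is 30.0% of the 100 genes, against 53.4% of all 13008 named genes. The same floor was set at 4 and at 6, which gave 37 and 27 genes. The number of arrays limits the precision of every value below.

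The families differed in how many members were measured. All T-box genes were low: none of the 13 TBX members exceeded 2.72 on any array, among them TBX15, which marks some fat depots in mouse, and TBX4 and TBX5, the hindlimb and forelimb genes. None of the 6 PAX transcription factors exceeded 2.74, including the muscle progenitor genes PAX3 and PAX7. TBX3 had the highest T-box mean, with 2.30 to 2.38 in control, 2.35 to 2.43 with DMIOA and 2.12 to 2.35 with retinoic acid, and PAX6 the highest PAX mean, with 2.05 to 2.5, 2.22 to 2.5 and 2.42 to 2.74. Of 7 LIM homeobox (LHX) genes, 6 stayed below 3 on all arrays. By contrast both PBX genes, both MSX genes and the single NR2F gene were tested, as were 10 of 24 forkhead (FOX) genes, 3 of 16 SOX genes, 2 of 5 GATA genes, TWIST1 and TWIST2 of 3 TWIST genes, and single genes of their families in MEIS2, IRX2, SIX5 and DLX5.

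**Figure D1:**
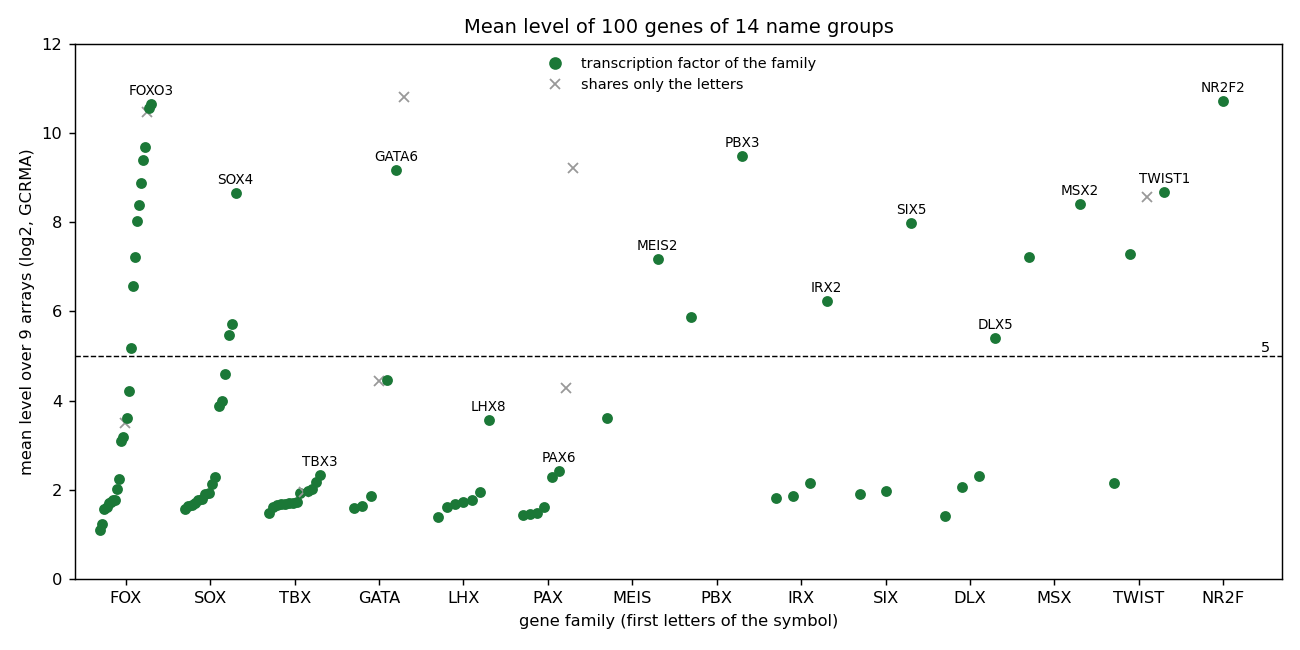
Mean level over 9 arrays (log2, y axis) of each of the 100 genes, by the first letters of its symbol (x axis). Circles are transcription factors of the family, and crosses are genes that share the letters but were not counted in the family. The transcription factor with the highest mean in each family is named. The TBX, PAX and LHX transcription factors all lie below the dashed line at 5, while NR2F2, FOXO3 and FOXP1 lie above 10.

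The factor with the highest mean was NR2F2 (gene ID 386585), the orphan nuclear receptor COUP-TFII, at 10.72 over the 9 arrays. Next came the forkhead genes FOXO3 (10.65) and FOXP1 (10.56), then FOXN3 (9.69), PBX3 (9.49), FOXO1 (9.39) and GATA6 (9.18). In each of these genes every array stood above 8. Different probe sets differ in how strongly they bind their target, so this order is one of signals and not of transcript amounts.

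TWIST1 (8.69 over 9 arrays) and TWIST2 (7.29), basic helix-loop-helix factors of mesenchyme, were well above 5 on all arrays, as were MSX2 (8.41) and MSX1 (7.21), homeobox genes of limb and face mesenchyme. MEIS2 (7.18), like the PBX genes a homeodomain partner of HOX proteins, was also measured, and its relative MEIS1 was not (3.61). The probe sets of GATA2 and GATA3, which restrain fat-cell differentiation in mouse preadipocytes, did not exceed 2.09 and 2.10 on any array. That of SOX9, the cartilage factor, did not exceed 1.66.

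Some pairs of neighbours in the RefSeq gene order held 1 tested gene beside 1 or more that were not, as levels of separate probe sets. DLX5 and DLX6 are adjacent, with means of 5.40 and 2.07. IRX2 lies between IRX4 and IRX1, with means of 6.23, 2.15 and 1.81. FOXC2 and FOXF1 have 1 coding gene between them and means of 7.22 and 1.09. SIX5 and SIX6 have 2 coding genes between them and means of 7.97 and 1.89. In other pairs both were low (TBX3 and TBX5 at 2.34 and 1.97, TBX4 and TBX2 at 1.65 and 1.71, FOXE3 and FOXD2 at 1.71 and 1.77, and LHX5 near TBX5 at 1.40), and TWIST1 and TWISTNB were both tested (8.69 and 8.58).

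Probe sets of the same gene often disagreed. Of 39 genes with more than 1, 14 had at least 1 probe set that was tested and at least 1 that was not. In 23 genes no probe set was tested, and in 2, FOXK2 and PAXBP1, all were. The other probe sets of SIX5 had means of 2.35 and 1.69, and the other DLX5 probe set 2.09, so the values of these genes each rest on 1 probe set.

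**Figure D2:**
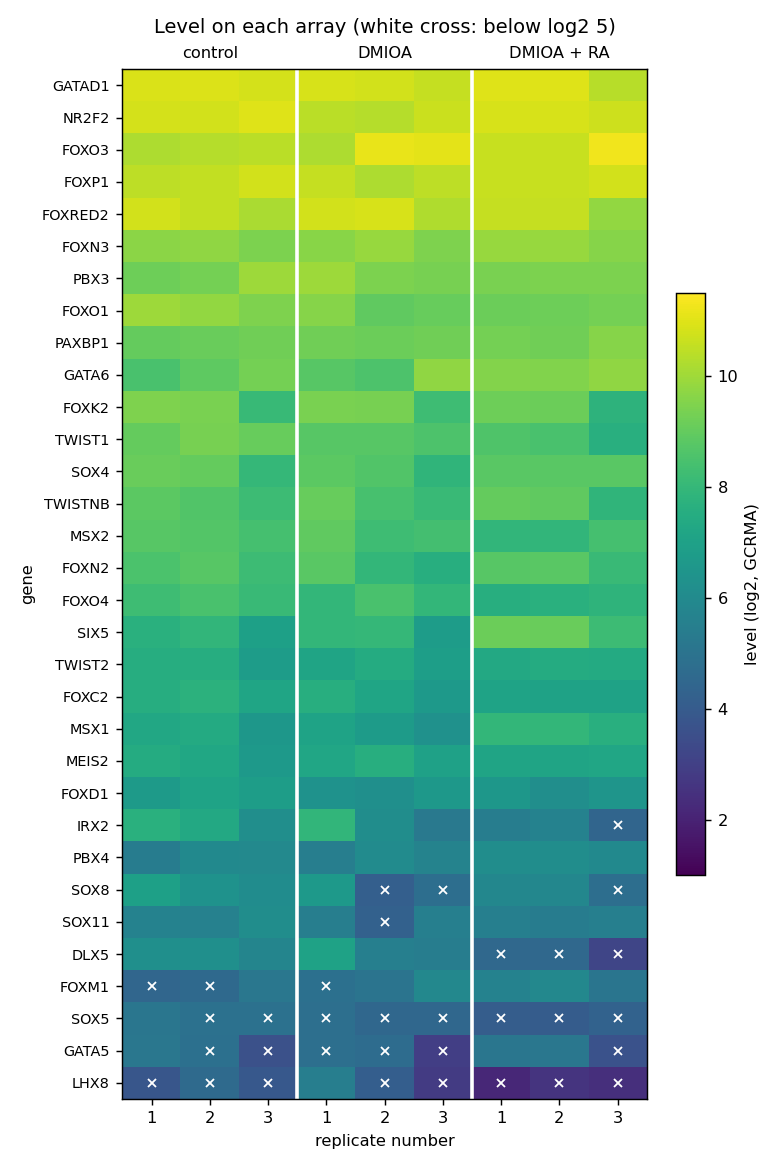
Level (log2, colour) of the 32 genes that reached 5 on at least 1 array, in rows ordered by mean, on the 9 arrays, in columns by group and replicate number; a white cross marks a level below 5. SIX5 is brighter with DMIOA + RA (8.20 to 9.14) than on any other array (at most 8.0), and all 3 DLX5 values with DMIOA + RA carry a cross.

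Replicate 3 of every group stood apart from replicates 1 and 2, and leukocyte markers moved with it. The median of the 12 tested members of a list of 17 macrophage and leukocyte markers was 2.00 to 2.32 in replicates 1 and 2. In replicate 3 of control, DMIOA and DMIOA plus retinoic acid it was 9.54, 8.92 and 7.34. Most of the 12 reached 5 in replicate 3 only, so the filter had chosen them for being high there, and this median is no independent measure. Of the untested markers, C1QA, ITGB2 and TLR4 (at most 9.34, 6.84 and 2.68) were also highest in replicate 3 of each group. MRC1 (at most 2.43) was not. Summed over the 16 markers on the array, the linear signal ran from 117 to 12867 in control, from 118 to 7381 with DMIOA and from 157 to 4611 with retinoic acid. In replicates 1 and 2 the defining markers CSF1R, C1QB and SPI1 did not exceed 2.5, 2.07 and 2.19. PTPRC and CD74 reached 5.80 and 5.02 on single arrays of these replicates, and CTSS ran from 4.78 to 6.04 over them. Preadipocyte and fibroblast markers were high: 10 of 11 were tested, the collagen gene COL1A1 had a mean of 14.11, and PDGFRA, the exception, did not exceed 3.53. A bulk array cannot tell fewer cells of a type from less RNA per cell.

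Many tested genes were lower in replicate 3. Of the 30, 21, 22 and 18 lay below the mean of replicates 1 and 2 in control, DMIOA and DMIOA plus retinoic acid, with median differences of -0.38, -0.31 and -0.18. Of the 26 in the families it was 18, 19 and 15. Over all 12329 tested probe sets 52.4%, 53.8% and 55.6% were lower, with medians of -0.025, -0.039 and -0.056, so with retinoic acid the share was near that of all probe sets. In all 3 groups 12 genes lay below both other replicates, 9 of them in the families, where 26.2% of all probe sets did: DLX5, FOXC2, FOXK2, FOXN2, FOXN3, FOXRED2, GATA5, GATAD1, IRX2, MSX1, SIX5 and TWISTNB. Of these, GATA5 passed the filter through arrays of replicates 1 and 2 alone. The replicate 3 arrays also carry the leukocyte signal, and they stood apart in other genes too. The tested endothelial markers, CDH5 and PECAM1, were highest in replicate 3 of each group. CDH5 had 10.92, 10.93 and 10.82 there in control, DMIOA and DMIOA plus retinoic acid, and at most 8.98 in replicates 1 and 2. The part of these signals in the values of the 30 genes was not tested.

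GATA5, IRX2 and FOXK2 had the largest gaps on average. GATA5, a relative of GATA6, had 5.17, 4.88 and 3.62 in control replicates 1, 2 and 3, 4.85, 4.72 and 2.94 with DMIOA, and 5.14, 5.17 and 3.66 with retinoic acid added. GATA5 passed the filter through arrays of replicates 1 and 2 alone, so the filter had chosen it for being high there. Its replicate 3 values are below the floor, so its gap is no independent measure. FOXK2, a forkhead gene with 5 tested probe sets, had 9.47, 9.38 and 8.06 in control, 9.39, 9.35 and 8.24 with DMIOA, and 9.18, 9.14 and 7.79 with retinoic acid. Both genes followed the replicate number, and their groups overlapped throughout. In all 3 groups 2 genes, GATA6 and PAXBP1, lay above both other replicates, where 19.8% of all probe sets did. Another PAXBP1 probe set had replicate 3 lowest in control (8.04, 7.92 and 7.85), and its remaining ones had replicate 3 highest in all 3 groups. GATA6 (gene ID 396390), an endoderm and heart factor, had 8.50, 8.89 and 9.32 in control. It had 8.78, 8.58 and 9.76 with DMIOA, and 9.54, 9.50 and 9.78 with retinoic acid. SOX11 and FOXO3 had the next largest upward gaps on average, 0.41 and 0.39. SOX11, a neural and mesenchymal HMG-box gene, had 5.67, 5.63 and 6.13 in control, 5.49, 4.24 and 5.54 with DMIOA, and 5.54, 5.39 and 5.54 with retinoic acid, so its high replicate 3 was clear only in control.

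DMIOA was set against control to see what the cocktail did on its own. None of the 30 genes was called by limma (Benjamini-Hochberg adjusted p under 0.05 over all 12329 tested probe sets, 0.146% of which were called), and none was called with the replicate number as a block (1.29% of all). At an unadjusted p under 0.05 there were 3 genes, all lower with DMIOA, where 11.6% of all probe sets passed. The median log2 difference of the 30 genes was -0.14, against 0.022 over all probe sets, and 20 were negative. A log2 difference of at least 1 either way was found in 1 gene, SOX8 (4.34% of all probe sets). With replicates 1 and 2 alone 0 genes were called (1.40% of all), and with array weights also 0 (2.18%).

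The 3 genes with an unadjusted p under 0.05 were NR2F2, FOXD1 and FOXO1. NR2F2, which can pair with the retinoid X receptor, had 10.81, 10.80 and 11.01 in control replicates 1, 2 and 3 and 10.43, 10.33 and 10.67 with DMIOA. The groups did not overlap, and the log2 difference was -0.40 ± 0.13 (SE; adjusted p = 0.296). FOXD1, a forkhead gene of kidney stroma, had 6.73, 7.11 and 6.83 in control and 6.34, 6.25 and 6.61 with DMIOA, a difference of -0.49 ± 0.16 (adjusted p = 0.307). Here too all DMIOA arrays lay below all control arrays. FOXO1, which insulin signalling inactivates and which restrains fat-cell differentiation in mouse, had 9.97, 9.82 and 9.47 in control and 9.60, 8.94 and 9.07 with DMIOA, and these ranges overlapped (-0.55 ± 0.20, adjusted p = 0.352). In 4 of the 30 genes, NR2F2, FOXD1, SOX11 and TWIST1, all DMIOA arrays lay below all control arrays, and in none above. Either way this held for 15.5% of all probe sets.

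The largest fitted difference was that of SOX8, an HMG-box gene related to SOX9. It had 6.98, 6.33 and 6.12 in control and 6.65, 4.17 and 4.77 with DMIOA, so DMIOA replicate 1 lay within the control range and the other DMIOA arrays were below 5. The difference was -1.28 ± 0.62 (adjusted p = 0.484). FOXO3 and FOXM1, a forkhead gene that drives mitotic genes, had the largest positive differences, 0.50 and 0.54 (adjusted p = 0.551 and 0.594). FOXM1 had 4.46, 4.59 and 5.17 in control and 4.87, 5.06 and 5.92 with DMIOA, close to the floor, and 5.64, 5.90 and 5.09 with retinoic acid.

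DMIOA plus retinoic acid was set against DMIOA to see what the retinoid added to the cocktail. Without the block 0 of the 30 genes were called by limma, where 3.89% of all probe sets were called; 5 genes had an unadjusted p under 0.05 (16.2% of all). With the replicate number as a block MSX1 and SIX5 rose and DLX5 fell: 3 of 30 genes, where 10.8% of all probe sets were so called (5.56% higher and 5.27% lower). In the same arrays CYP26A1, a known target whose enzyme degrades retinoic acid, rose from 1.93 ± 0.10 (SD, n = 3) to 11.97 ± 0.58 (limma adjusted p = 1.73e-06). CYP26A1 passed the filter through the retinoic acid arrays alone, and its level with DMIOA is below the floor. The median log2 difference of the 30 genes was 0.097, against 0.044 over all probe sets. A log2 difference of at least 1 either way was found in 4 genes (7.58% of all), and 3 genes were called with array weights (9.99% of all). Of the tested cell type markers 0 were called between these groups without the block. With it PDGFRB (1 of 10 tested preadipocyte markers), PECAM1 (1 of 2 endothelial), MYH1E (1 of 2 skeletal muscle) and LPL (1 of 3 adipocyte) fell. Their limma blocked adjusted p was 0.0189, 0.0325, 0.0101 and 0.0447. PDGFRB differed by -0.90, and the others had retinoic acid means below the floor. The part of these markers in the values was not tested.

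MSX1 (gene ID 396484), a homeobox repressor that keeps embryonic mesenchyme undifferentiated, had 7.11, 6.75 and 6.30 in DMIOA replicates 1, 2 and 3 and 7.94, 7.94 and 7.62 with retinoic acid. All arrays with retinoic acid lay above all others, control included (6.57 to 7.42). The rise was 2.17-fold, with a log2 difference of 1.11 ± 0.28 (SE; limma adjusted p = 0.0730, blocked 0.00854), and with the block it stayed called without any 1 of the 9 arrays (adjusted p up to 0.0467). Within replicate numbers the difference was 0.83, 1.19 and 1.32. Its relative MSX2 had 8.79, 8.68 and 8.39 in control, 8.95, 8.23 and 8.37 with DMIOA and 7.93, 7.92 and 8.42 with retinoic acid, differences of -1.02, -0.31 and 0.05 that did not share a direction (adjusted p = 0.421, blocked 0.278).

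SIX5 (gene ID 395601), a homeobox gene related to the fly eye gene sine oculis, had 7.95, 8.0 and 6.80 with DMIOA and 9.14, 9.11 and 8.20 with retinoic acid, which is 2.35-fold higher. Replicate 3 was the lowest array of each group, and the step within a replicate number was alike in all 3, at 1.19, 1.11 and 1.40. The log2 difference was 1.23 with a standard error of 0.42 without the block and 0.12 with it (adjusted p = 0.180, blocked 0.00309), and the blocked call was kept without any 1 array (up to 0.0234). The other SIX5 probe sets stayed below 3 on all arrays and could not show a change.

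DLX5 (gene ID 373969), a homeobox gene of bone-forming cells and the jaw, had 7.05, 5.53 and 5.45 with DMIOA and 4.55, 4.56 and 3.20 with retinoic acid. All 3 values with retinoic acid were below the floor of 5, so the gene was at least 2.01-fold lower. DLX5 passed the filter through the control and DMIOA arrays alone, so its fall is no independent support. The fitted difference was -1.90 ± 0.51 (adjusted p = 0.0911, blocked 0.0196). The blocked call was lost without DMIOA replicate 1, DMIOA replicate 3 or retinoic acid replicate 1 (adjusted p up to 0.0898), and the bound moves with the floor, to 3.11-fold at 4 and 1.27-fold at 6. IRX2, an Iroquois homeobox gene, had 7.92, 6.13 and 5.26 with DMIOA and 5.46, 5.65 and 4.42 with retinoic acid. Its groups overlapped, and it was lower within each replicate number, by -2.46, -0.48 and -0.84 (adjusted p = 0.440, blocked 0.0808).

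**Figure D3:**
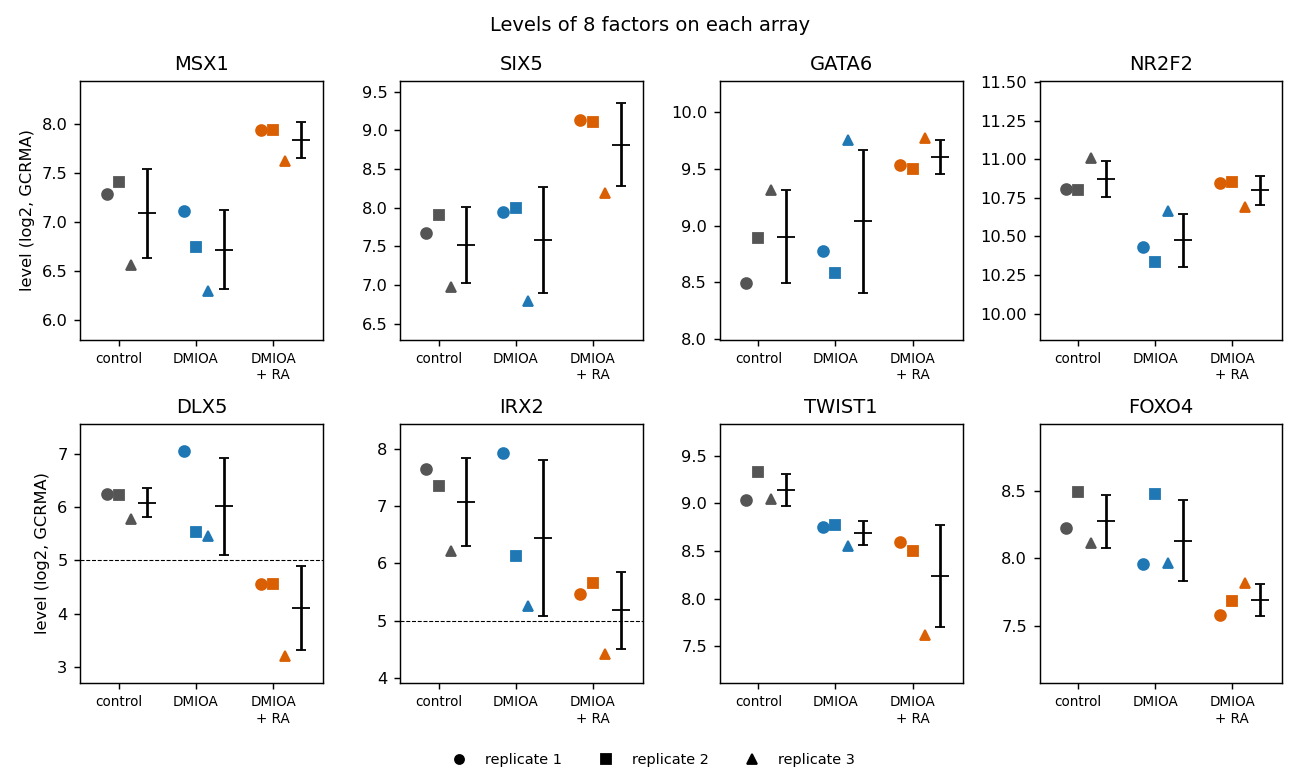
Level (log2, y axis, not starting at 0) of 8 transcription factors on each array, by group (x axis, RA is retinoic acid) and replicate number (symbol); the bar beside each group is its mean ± SD (n = 3 arrays), and a dashed line marks 5 where it is in range. MSX1 and SIX5 lie higher with DMIOA + RA than on all other arrays, DLX5 lies lower, and the triangles of SIX5 and MSX1 (replicate 3) are the lowest of each group.

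NR2F2 and FOXO4 did not overlap between these groups either, at small sizes. NR2F2 had 10.85, 10.86 and 10.69 with retinoic acid, 0.32 ± 0.13 above DMIOA (adjusted p = 0.266, blocked 0.156), and its log2 difference from control was then -0.07 (adjusted p = 0.753). The DMIOA arrays are part of both comparisons. FOXO4, an insulin-regulated forkhead gene, had 7.96, 8.48 and 7.96 with DMIOA and 7.58, 7.68 and 7.82 with retinoic acid (-0.44 ± 0.18, adjusted p = 0.273). Among the 30 genes 4 were higher and 2 lower with no overlap; either way this held for 22.0% of all probe sets. With replicates 1 and 2 of each group alone, MSX1, SIX5, NR2F2, GATA6 and FOXM1 were called higher (12.3% of all probe sets called). GATA6 differed by 0.76 and 0.92 in replicates 1 and 2 and by 0.02 in replicate 3, and FOXM1 by 0.77, 0.85 and -0.82. Replicate 3 had high leukocyte markers and differed in other genes too, and the part of these in the values was not tested.

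**Figure D4:**
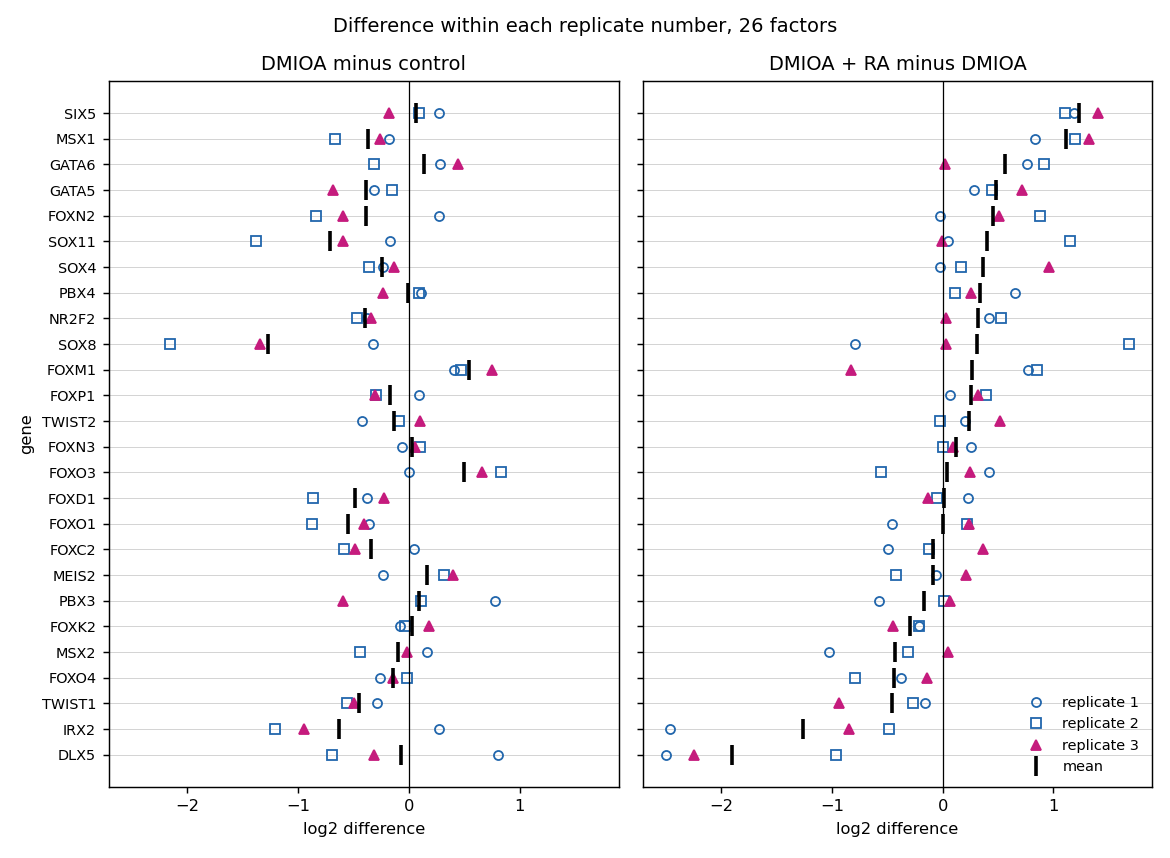
Log2 difference (x axis) of the 26 tested transcription factors (y axis, ordered by the right panel) within replicate numbers 1, 2 and 3, with the mean as a bar, for DMIOA minus control (left) and DMIOA + RA minus DMIOA (right). The 3 symbols of SIX5 lie close together at 1.11 to 1.40 in the right panel, while those of SOX8 and FOXM1 lie on both sides of 0.

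Against untreated control, DMIOA plus retinoic acid gave 1 call by limma among the 30 genes, DLX5, which was lower. Over all probe sets 13.2% were called (6.74% higher and 6.42% lower). DLX5 passed the filter through the control and DMIOA arrays alone, so the filter had chosen it for being high there. At an unadjusted p under 0.05 there were 9 genes (30.4% of all), and 3 had a log2 difference of at least 1 either way (12.6%). With replicates 1 and 2 alone 5 genes were called (29.4% of all), and with array weights 17 (67.5%). With the replicate block SIX5, MSX1 and GATA6 rose and DLX5, IRX2, TWIST1 and FOXO4 fell: 7 of 30 genes, against 28.8% of all probe sets (15.8% higher and 13.0% lower). The groups did not overlap in 5 genes that were higher and 9 that were lower, and either way in 38.6% of all probe sets. This comparison shares its treated arrays with the one before, so its values are given beside those and not as further support. Markers of several cell types differed between the same groups, and their part in the values below was not tested. Of 2 tested skeletal muscle markers, of 8, the myosin gene MYH1E was called lower with retinoic acid than in control (limma adjusted p = 0.00413). It did not exceed 4.24 with retinoic acid, below the floor, so no size is given. With DMIOA alone it was also lower than in control (fitted -2.34, limma adjusted p = 0.192, blocked 0.0330). ACTA1, the other, was called lower with retinoic acid only with the block (-1.18, limma adjusted p = 0.116, blocked 0.0468). Of 2 tested endothelial markers, of 6, PECAM1 was lower (fitted -2.77, limma adjusted p = 0.00705), with a retinoic acid mean of 4.34, below the floor. PECAM1 was also lower with DMIOA alone than in control (fitted -1.58, limma adjusted p = 0.228, blocked 0.0477). The other, CDH5, was not called (-0.14, limma adjusted p = 0.949, blocked 0.665). The median of those 2 endothelial markers was 7.32, 7.66 and 9.17 in control, 7.26, 6.82 and 8.50 with DMIOA and 5.89, 5.83 and 8.07 with retinoic acid. Of 10 tested preadipocyte markers PDGFRB was lower (-1.03, 0.0385), and 4 were lower with the block. Of 3 tested adipocyte markers CIDEC was called higher (limma adjusted p = 0.0437). It did not exceed 4.09 in control and passed the filter through the treated arrays alone. The filter had thus chosen it for being high there, and no size is given. LPL was lower with the block (fitted -2.45, blocked 0.00181), with a retinoic acid mean of 4.73, below the floor. FABP4 was not called (-1.70, limma adjusted p = 0.504, blocked 0.378). Of 12 tested leukocyte markers 1, PTPRC, was called lower, and only with the block (limma adjusted p = 0.291, blocked 0.0110). Its retinoic acid mean was 4.07, below the floor.

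DLX5 had 6.24, 6.22 and 5.77 in control, above all 3 values with retinoic acid, and was at least 2.11-fold lower (3.26-fold with the floor at 4 and 1.11-fold at 6; fitted log2 difference -1.97 ± 0.51, limma adjusted p = 0.0414, blocked 0.00950). The call without the block was lost without any 1 of the control or retinoic acid arrays or DMIOA replicate 2 (adjusted p up to 0.133), with no filter (0.0719) and with replicates 1 and 2 alone (0.0568). The blocked call was lost without control replicate 2 (0.0506). DMIOA alone had left DLX5 at 6.01 ± 0.90 against 6.08 ± 0.27 in control (SD, n = 3).

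SIX5 had 7.68, 7.91 and 6.97 in control and was 2.45-fold higher with retinoic acid (1.29 ± 0.42, adjusted p = 0.0793, blocked 0.00142, up to 0.0134 with the block and any 1 array left out). MSX1 had 7.29, 7.42 and 6.57 in control and was 1.68-fold higher (0.74 ± 0.28, adjusted p = 0.116, blocked 0.0144). GATA6 was higher by 1.04, 0.60 and 0.46 within the replicate numbers (0.70 ± 0.33, adjusted p = 0.192, blocked 0.0440). Of these, the blocked call of MSX1 was lost without control replicate 1 or retinoic acid replicate 2 (0.0698), and that of GATA6 without any control array, either of retinoic acid replicates 1 and 2, or DMIOA replicate 1 (up to 0.170).

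IRX2 had 7.65, 7.34 and 6.21 in control, above all its values with retinoic acid, and was at least 3.24-fold lower (2.09-fold with the floor at 6; adjusted p = 0.115, blocked 0.0133; 0.0646 with the block and without control replicate 2). TWIST1 (gene ID 395491) had 9.04, 9.33 and 9.05 in control, 8.75, 8.77 and 8.55 with DMIOA, and 8.59, 8.50 and 7.62 with retinoic acid. Its DMIOA values lay below all control values and overlapped those with retinoic acid, and the difference between the outer groups was -0.90 ± 0.25 (adjusted p = 0.0541, blocked 0.0184). It was called without the block when array medians were centred and under cyclic loess, and the blocked call was lost without control replicate 2 or 3 or retinoic acid replicate 2 (up to 0.0786). FOXO4 had 8.22, 8.49 and 8.11 in control and differed by -0.58 ± 0.18 (adjusted p = 0.0697, blocked 0.0282, lost without control or retinoic acid replicate 1 or 2, up to 0.118).

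The remaining tested factors were not called in any of the 3 comparisons, with or without the block. PBX3 had 9.17, 9.33 and 9.95 in control, 9.95, 9.43 and 9.35 with DMIOA and 9.37, 9.44 and 9.42 with retinoic acid. PBX4 ran from 5.40 to 6.17 over the 9 arrays. MEIS2 had 7.44, 7.25 and 6.62 in control, 7.21, 7.57 and 7.02 with DMIOA and 7.15, 7.15 and 7.23 with retinoic acid, with overlap between all groups. Among the highest forkhead genes, FOXP1 ran from 10.23 to 10.78 and FOXN3 from 9.42 to 9.89, and FOXO3 had 10.22, 10.32 and 10.39 in control, 10.22, 11.15 and 11.05 with DMIOA and 10.64, 10.60 and 11.29 with retinoic acid (adjusted p = 0.244 against control). SOX4, with the highest mean of the SOX genes (8.66), had 9.09, 9.01 and 8.0 in control, 8.85, 8.65 and 7.86 with DMIOA and 8.83, 8.82 and 8.82 with retinoic acid. TWIST2 ran from 6.80 to 7.56. A p that misses the threshold does not show that these levels were equal.

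Near the floor, GATA5 was the tested gene with the lowest mean (4.46) and reached 5 on 3 arrays, while SOX5, a cartilage factor, reached it on 1 array (mean 4.58) and was not tested. SOX5 had 5.13, 4.92 and 4.91 in control, 4.85, 4.50 and 4.52 with DMIOA and 4.10, 4.04 and 4.29 with retinoic acid. SOX18, an endothelial factor, had 4.02, 3.93 and 4.09 in control, 3.47, 3.23 and 3.18 with DMIOA and 4.27, 4.54 and 4.07 with retinoic acid. Lowering the filter to 4 brought SOX5 and SOX18 among the called genes, at levels below 5 where neither a size nor a direction is given here. LHX8, a LIM homeobox gene, had 3.82, 4.62 and 3.87 in control, 5.51, 4.16 and 2.83 with DMIOA and 2.18, 2.58 and 2.41 with retinoic acid, and was not called with the filter at 4.

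A list of 26 partner genes of these families held 8 tested genes, and 0 were called between DMIOA plus retinoic acid and DMIOA without the block. With the block TGIF1, a homeodomain corepressor related to MEIS, rose (8.05 ± 0.45 to 9.53 ± 0.70, SD, n = 3; limma adjusted p = 0.0815, blocked 0.00377), and LDB2, which bridges LIM homeodomain proteins, fell (7.75 ± 0.39 to 6.51 ± 0.15, adjusted p = 0.0532, blocked 0.00559). A list of 44 other mesenchymal developmental factors held 20 tested genes, of which 3 rose in that comparison and 0 fell, or 4 rose and 4 fell with the block (3.89% and 10.8% of all probe sets called). The 3 were TCF21, a mesothelial and fibroblast factor (4.10 ± 0.77 to 11.39 ± 0.32, adjusted p = 7.91e-05), SNAI2 (10.64 ± 0.51 to 11.91 ± 0.25, limma adjusted p = 0.0431) and the homeobox gene EN1 (9.94 ± 0.20 to 11.13 ± 0.04, adjusted p = 0.00326). TCF21 did not exceed 4.56 on the control and DMIOA arrays and passed the filter through the retinoic acid arrays alone. Its place among the genes that rose was thus fixed by the filter, and its starting level is below the floor. With the block TSHZ1 was also called higher (limma blocked adjusted p = 0.0224). It too passed the filter through the retinoic acid arrays alone. With at most 4.71 on the others its starting level is below the floor, so no size is given. PRRX2, EBF1 and EBF3 fell with the block (-1.66, -1.17 and -1.33, with limma blocked adjusted p = 0.0472, 0.0490 and 0.0373). SCX, a tendon factor, was also called lower with the block (limma blocked adjusted p = 0.0397). Its means of 4.37 with DMIOA and 2.92 with retinoic acid are below the floor, so no size is given. The medians of these lists were -0.06 and -0.24, against 0.044 over all probe sets. Between DMIOA and control 0 genes of either list were called, with or without the block.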

How the data were processed

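RNA of 9 samples, 3 each of control, DMIOA and DMIOA plus retinoic acid, was hybridised to 1-colour Affymetrix chicken arrays, 1 per sample. The deposited values are log2 levels per probe set that the authors made with GCRMA (background adjustment, normalization between arrays and summary of probes), per the submitters' processing notes. No version is named for it. GCRMA shrinks dim probe sets to low values, so a difference near the floor is uncertain. No scanner files were used here.

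Probe sets were named from the platform annotation. Those with 1 gene symbol entered, 4 family probe sets with several were left out, and the gene IDs of all 100 genes were found in the RefSeq table (GRCg7b), which gave names and neighbours only. Probe sets at log2 5 or more on at least 3 arrays were kept: 12329 of 37693. In limma 3.58.1 (R 4.3.3) the model held 1 mean for each group over all 9 arrays, with Benjamini-Hochberg adjustment over all kept probe sets and calls under 0.05. The fit without the block was run on simulated data with independent noise, for DMIOA plus retinoic acid against DMIOA. The blocked fit was not tested in this way. SE is limma's standard error.

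The replicate numbers were checked: after removal of group means, the 9 pairs of arrays with the same number correlated at 0.375 to 0.857, and the 18 others at -0.804 to 0.668. Since all same-number pairs exceeded 0.1, the fit with the number as a block is given beside each result it changes. The correlations set replicate 3 apart and do not tie 1 with 1 and 2 with 2: control 2 correlated at 0.668 with DMIOA 1 and at 0.395 with DMIOA 2. Differences within numbers 1 and 2 thus follow the labels only.

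The genes and lists were chosen with earlier results of these data known. Every gene is accounted for, with values for those called with or without the block, the highest mean of each family, the 3 largest gaps of replicate 3 in each direction and those nearest the floor. Other genes named with values were chosen after their values were seen. The leukocyte, endothelial, preadipocyte, partner and other-factor lists are described in the text. Of the remaining marker lists, 3 of 6 adipocyte and 2 of 8 skeletal muscle markers were tested and 0 of the mesothelial, erythroid and neural ones. Of 16 retinoid genes 7 were tested, of which 4 rose and 1 fell with retinoic acid against DMIOA (3.89% of all probe sets called). CYP26A1, CYP26B1 and CYP26C1 reached 5 only on the retinoic acid arrays, so the filter had chosen them for being high there. Alternatives were the filter, centring, cyclic loess, array weights, an intensity trend with a robust prior, replicates left out, 6 arrays only, every probe set and the floor.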

Additional observations from a re-analysis of the deposited data

How the results depend on the processing

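Between DMIOA and control 0 of the genes were called under every alternative run. Between DMIOA plus retinoic acid and DMIOA the count of 0 became 3 with array weights, 3 with the replicate block, 5 with replicates 1 and 2 alone, and 1 (SOX18) with the filter at log2 4 or with no filter. Leaving out each array in turn gave 0 to 6 over the fits without and with the block, with 6 in the blocked fit without retinoic acid replicate 3. Against control the count of 1 became 2 with centred medians, cyclic loess, the filter at log2 4, or the intensity trend with a robust prior, 5 with replicates 1 and 2 alone, 7 with the block and 17 with array weights, a setting that called 67.5% of all probe sets. With no filter the count stayed 1, but the gene was SOX5, below the floor, and DLX5 was lost. The count ran from 0 to 11 with 1 array left out, and was 11 in the blocked fit without retinoic acid replicate 3. The blocked fits with an array left out were added after seeing the data. The cause of these changes was not tested. The direction between DMIOA and control turned for 3 genes that were never called in that comparison: DLX5 (-0.07) was 0.056 with replicates 1 and 2 alone and -0.59 to 0.32 with 1 array left out, GATA6 (0.14) was -0.015 and -0.22 to 0.37, and SIX5 (0.06) was -0.19 with array weights and -0.21 to 0.46 with 1 array left out. Over 7 named genes, 588 alternative values held 17 changes of sign. Signal over background limits the 70 genes that were not tested.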
